A study of Homo sapiens with 23 samples.

Results

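Matrix metalloproteinases (MMPs), the related secreted ADAMTS proteases and the tissue inhibitors of metalloproteinases (TIMPs) were examined in RNA-seq libraries of ovarian cancer cell lines. The genes were chosen by a rule on names, set with earlier results of these data known. Members were the protein-coding genes whose symbol is MMP, ADAMTS or TIMP followed by a number, with the ADAMTS-like genes left out. RefSeq names 46 such genes, and 40 of them were among the 21658 genes of the deposited table: 18 of 23 MMPs, 18 of 19 ADAMTS and all 4 TIMPs. ADAMTS19, MMP8, MMP20, MMP21, MMP26 and MMP27 had no value.

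The study made cells resistant to prexasertib, an inhibitor of the checkpoint kinase CHK1, by growing them for a long time in rising drug concentrations. The established lines Kuramochi, OVSAHO, OV-90 and EFO-21 were each sequenced as the parental line and as its resistant derivative, with 3 biological replicates a group and 2 for parental OV-90. The 8 groups hold 23 libraries, which are named here by the library numbers 2 to 24 that the table gives them. Neither the drug concentration at harvest nor the number of clones behind a resistant line is given in the labels.

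MMPs and ADAMTS proteases are zinc enzymes that cut collagens, proteoglycans and other proteins outside the cell, and most are made as inactive precursors. TIMPs bind the active enzymes and block them, so the balance of enzyme and inhibitor sets how much matrix is broken down. In ovarian carcinoma these enzymes are known for their part in peritoneal spread, and both tumour cells and the surrounding stroma can make them.

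Values are the deposited log2 expression values, quantile normalized by the authors. They were not divided by gene length, so levels of a gene are compared between lines, and those of different genes are not strictly comparable. Sums of markers, the gene said to lead a sum and percentiles of all genes use these undivided values. A value is said to lie at the bottom where it is at or below the 10th percentile of its library, which was between 1.70 and 1.87. By that measure 15 of the 40 members were above the bottom in all 23 libraries, 0 were at the bottom in all of them, and 19 were at the bottom in every library of at least 1 group. Where all libraries of a group lay at the bottom, values and adjusted p are given but no fold. A log2 change or difference of means given for such a group shows how far it moved between settings and is not a measured fold.

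Libraries of most groups lay close together, and the parental OV-90 pair stood furthest apart. The median SD of a gene was 0.257 in parental OV-90 and 0.221 in parental Kuramochi, against 0.114 to 0.154 in the other 6 groups. Between libraries 2 and 3, the parental OV-90 pair, 5 members were over 1 log2 unit apart. The gelatinase MMP2 was at 3.58 in library 2 and at 1.61 in library 3, and MMP7 was at -0.01 and 1.32. In parental Kuramochi, library 4 differed from libraries 5 and 6 by a median of 0.284 and 0.325, while 5 and 6 differed by 0.138.

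Mullerian markers were lower in parental OV-90 than in parental Kuramochi and OVSAHO, except that MECOM was not told apart from Kuramochi (means 6.68 and 6.74, adjusted p = 0.782). In OVSAHO MECOM averaged 8.25. PAX8 was at 2.43 and 1.77 in the parental OV-90 libraries and at 9.37, 9.02 and 8.44 on average in parental Kuramochi, OVSAHO and EFO-21. SOX17 averaged 4.38 in OV-90, and 12.36, 11.92 and 12.47 in those lines. WT1 averaged 1.87 in parental OV-90 and was at the bottom in all EFO-21 libraries, and MUC16 was at the bottom in all OV-90 libraries. OV-90 also had high LUM, a stromal proteoglycan gene, at 12.31 and 13.21, and high LYZ, a leukocyte gene, at 11.73 and 12.39. All 6 epithelial markers were above the bottom in every parental library.

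The summed level of 6 epithelial markers was lower after resistance in all 4 lines, with most calls in Kuramochi and OVSAHO. In each of these lines 4 of 6 were lower and 0 higher by limma at the threshold given with the members' counts, and at an unadjusted p under 0.05 the lower ones were 5 and 6 and the higher ones 0 and 0. The sum, on the log2 scale, was 12.78, 12.99 and 13.08 in parental and 11.90, 11.83 and 11.86 in resistant Kuramochi. KRT18 had the highest value there, and CDH1 was at the bottom in all 3 resistant libraries. In OVSAHO the sum was 12.33, 12.28 and 12.36 and then 11.14, 11.04 and 11.08, with KRT7 at the highest value. In OV-90 it was 14.53 and 14.33 and then 13.98, 14.03 and 13.97, led by KRT19, with 0 of 6 called by limma and 3 lower and 0 higher at an unadjusted p under 0.05. In EFO-21 it was 13.30, 13.32 and 13.37 and then 12.73, 12.77 and 12.80, led by KRT19, with CDH1 called higher, 0 called lower and 5 lower at an unadjusted p under 0.05. The keratin genes KRT8, KRT18 and KRT19 were under 2-fold lower in these 2 lines, at adjusted p of 0.0263, 0.0278 and 0.0275 in OV-90 and 0.00171, 8.58e-05 and 5.64e-05 in EFO-21.

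Other marker lists changed in Kuramochi and OVSAHO too. The 5 Mullerian markers summed to 12.63, 12.57 and 12.65 in parental and 11.59, 11.54 and 11.51 in resistant Kuramochi, led by SOX17, and 4 of the 5 were lower, with MECOM and MUC16 at the bottom. Of 8 measured stromal markers, 2 were higher and 4 lower there, and the sum went from 11.12, 10.86 and 10.88 to 9.14, 9.01 and 9.01, led by COL3A1, with COL1A2 and DCN at the bottom in the resistant libraries. Of 5 leukocyte markers CD68 was 6.94-fold higher, and the sum went from 6.24, 6.64 and 7.42, led by CD14, to 7.69, 7.77 and 7.97, led by CD68, with CD3E at the bottom. Of 4 endothelial markers CDH5 was 7.29-fold higher and KDR and VWF were lower, and the sum went from 6.46, 5.93 and 6.27, led by KDR, to 7.78, 7.85 and 7.59, led by CDH5, with PECAM1 at the bottom. In OVSAHO the Mullerian marker MUC16 was 24-fold lower, while the sum went from 12.26, 12.29 and 12.41 to 12.65, 12.57 and 12.50, led by SOX17. Stromal markers there were 2 higher and 3 lower, and the sum went from 7.33, 7.15 and 7.19, led by THY1, to 7.98, 8.02 and 8.10, led by LUM, with COL1A2 and COL3A1 at the bottom. Of the leukocyte markers 4 of 5 were lower in OVSAHO, where the sum went from 7.96, 8.49 and 7.81 to 6.76, 6.65 and 6.81, led by CD68, with CD3E and PTPRC at the bottom. CDH5 was called higher in OVSAHO with all 6 libraries at the bottom, and the endothelial sum went from 2.82, 3.32 and 3.35 to 3.58, 3.74 and 3.61, led by VWF.

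Fewer calls were made among the markers of OV-90 and EFO-21. In OV-90 1 of 5 Mullerian markers, MECOM, was higher, with sums of 6.87 and 7.27 and then 7.92, 7.97 and 8.01, and 1 of 4 endothelial markers, PECAM1, was lower, with sums of 6.49 and 6.45 and then 4.13, 4.16 and 4.07. Of its stromal and leukocyte markers 0 were called by limma, and at an unadjusted p under 0.05 the higher ones were 0 and 1 and the lower ones 2 and 3. In EFO-21 the leukocyte sum went from 8.78, 8.96 and 8.80 to 9.88, 9.77 and 9.74, led by CD68, which was higher, and 2 of the 5 were lower, with LYZ at the bottom. COL1A2 was higher among the stromal markers of EFO-21, and KDR fell to the bottom among the endothelial ones. Fewer cells that express a marker and less of its RNA per cell cannot be told apart in bulk RNA of these cultured lines. The part of these marker changes in the results on proteases was not tested.

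A compact group of MMP genes lies on chromosome 11, and its members in the table are MMP7, MMP10, MMP1, MMP3, MMP12 and MMP13. In GENCODE annotation lifted to GRCh37 they run along the minus strand from MMP7 (NCBI Gene 4316, chr11:102391239-102401481) through MMP10 (Gene 4319, chr11:102641233-102651359), MMP1 (Gene 4312, chr11:102660132-102668891), MMP3 (Gene 4314, chr11:102706532-102714340) and MMP12 (Gene 4321, chr11:102733467-102745712) to MMP13 (Gene 4322, chr11:102813724-102826461). Promoter sequences are shown for MMP10 and MMP7 of this group and for ADAMTS12, because these are the 3 members whose promoter held the motif marked in them. Each is the RefSeq sequence, in build GRCh38.p14, from 250 bases before to 50 bases after the start site, on the minus strand: chr11:102780579-102780878 for MMP10, chr11:102530698-102530997 for MMP7 and chr5:33891941-33892240 for ADAMTS12. Capitals mark TGANTCA, whose letters cover the AP-1 element known from several MMP promoters, searched on both strands.
MMP10: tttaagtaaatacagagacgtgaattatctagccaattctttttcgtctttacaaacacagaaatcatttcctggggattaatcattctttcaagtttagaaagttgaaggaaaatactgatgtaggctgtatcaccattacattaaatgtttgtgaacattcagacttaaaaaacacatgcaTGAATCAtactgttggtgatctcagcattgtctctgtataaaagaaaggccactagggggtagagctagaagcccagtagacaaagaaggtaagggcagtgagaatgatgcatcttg
MMP7: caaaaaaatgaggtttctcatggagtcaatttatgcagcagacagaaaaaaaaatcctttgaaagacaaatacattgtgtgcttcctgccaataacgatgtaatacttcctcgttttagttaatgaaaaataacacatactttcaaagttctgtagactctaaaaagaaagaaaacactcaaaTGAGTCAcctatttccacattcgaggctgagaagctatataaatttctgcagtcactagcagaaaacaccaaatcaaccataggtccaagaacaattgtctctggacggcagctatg
ADAMTS12: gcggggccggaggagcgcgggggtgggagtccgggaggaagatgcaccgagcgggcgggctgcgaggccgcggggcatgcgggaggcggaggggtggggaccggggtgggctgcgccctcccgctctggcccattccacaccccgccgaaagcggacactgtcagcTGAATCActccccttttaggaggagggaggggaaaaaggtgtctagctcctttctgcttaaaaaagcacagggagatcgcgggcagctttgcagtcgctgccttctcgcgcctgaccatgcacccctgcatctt
The motif begins 67 bases before the start site in both MMP10 and MMP7 and 84 bases before it in ADAMTS12. The promoter file used held 21 of the 40 members, with 22 windows because ADAMTS10 has 2, and 3 of the 22 windows held the motif. Among all 35116 promoter windows of the same length, 7.71% held it. TATAAA, whose letters are a form of the TATA box, was also searched on both strands. It was in 3 of the 22 windows and in 11.5% of all windows. In MMP10 and MMP7 it began 31 and 30 bases before the start site, on the strand of the gene. In 1 window of ADAMTS10 it lay on the other strand, 78 bases before the start site. A match describes the letters and does not show that a protein binds them. The promoter file used held no sequence for MMP1, MMP2, MMP3, MMP9, MMP12, MMP13, MMP16, MMP17, MMP19, MMP25, MMP28, ADAMTS1, ADAMTS4, ADAMTS5, ADAMTS8, ADAMTS9, ADAMTS15, ADAMTS16 or TIMP2.

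The parental lines differed widely in which proteases they expressed. EFO-21 stood out for matrilysin and gelatinase A, OV-90 for the collagenases and MMP3, Kuramochi for ADAMTS12, and OVSAHO for how low MT1-MMP and TIMP1 were. By limma's moderated F-test over the 11 parental libraries, 39 of 40 members differed at an adjusted p under 0.05 with group means at least 1 log2 unit apart, where 79.7% of all genes did. MMP25, a protease anchored to leukocyte membranes by a lipid, was the member that did not, at an adjusted p of 0.0574.

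Of the collagenases, which open the triple helix of fibrillar collagen, both measured ones were highest in OV-90. MMP1 was at 9.16 and 9.49 in parental OV-90, 4.11, 3.99 and 4.46 in EFO-21, 1.73, 0.78 and 1.91 in OVSAHO and 0.68, 0.53 and 1.60 in Kuramochi. OV-90 lay above EFO-21 (adjusted p = 1.68e-06), and OVSAHO and Kuramochi, at or near the bottom, were not told apart (adjusted p = 0.227). MMP13 was at 6.61 and 6.39 in OV-90 and at the bottom in every parental library of Kuramochi and OVSAHO. In EFO-21 it was at 0.00, 2.59 and 0.78. The value of MMP13 rests on 1 exon.

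Stromelysins cut proteoglycans and adhesive proteins and can activate other MMP precursors. MMP10 was at 7.11, 7.33 and 7.11 in EFO-21 and 7.0 and 7.0 in OV-90, which were not told apart (adjusted p = 0.44). Kuramochi lay lower, at 3.51, 3.33 and 3.69, and OVSAHO was at the bottom, at 0.54, 1.10 and 0.77. MMP3 was well above the bottom in OV-90, at 5.74 and 5.07, and had values of 0.00 in all 3 parental EFO-21 libraries. MMP11, which furin activates inside the cell, ranged from a mean of 4.30 in OVSAHO to 6.40 in EFO-21.

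Matrilysin, MMP7, is a small MMP made by epithelial cells, and it had the widest span of parental means here. Its values were 13.69, 13.70 and 13.65 in EFO-21, 5.86, 5.56 and 5.69 in OVSAHO, 2.76, 3.39 and 3.49 in Kuramochi and -0.01 and 1.32 in OV-90. Each line differed from the next in this order, with adjusted p of 8.62e-09, 4.53e-05 and 7.27e-05. The EFO-21 mean of 13.68 lay at the 99.4th percentile of all genes, by values not divided by gene length.

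Gelatinases cut denatured collagen and the type IV collagen of basement membranes. MMP2 (Gene 4313, chr16:55423612-55540603) was at 10.94, 10.99 and 10.93 in EFO-21, 7.92, 7.96 and 7.92 in Kuramochi and 6.97, 6.97 and 6.97 in OVSAHO. The OV-90 pair was far lower and split. MMP9 (Gene 4318, chr20:44637547-44645200) ran in another order, with 6.78, 6.78 and 6.84 in EFO-21, 5.22 and 4.48 in OV-90, 1.88, 2.42 and 1.41 in OVSAHO and 0.81, 1.18 and 2.27 in Kuramochi. OVSAHO and Kuramochi were not told apart for MMP9 (adjusted p = 0.311).

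MT1-MMP, encoded by MMP14 (Gene 4323, chr14:23305769-23318250), sits in the cell membrane and activates the MMP2 precursor with TIMP2 as adaptor. MMP14 was at 9.56, 9.55 and 9.50 in EFO-21, 8.39 and 8.86 in OV-90 and 7.94, 7.87 and 7.80 in Kuramochi. OVSAHO was far below them, at 2.51, 2.46 and 2.75. The adjusted p of OVSAHO against Kuramochi, the next line up, was 1.08e-09. MMP16, which encodes MT3-MMP, was above the bottom in parental OVSAHO and Kuramochi, with means of 4.50 and 4.26, and at the bottom in OV-90 and EFO-21.

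Of the ADAMTS genes, ADAMTS12, whose enzyme cuts cartilage oligomeric matrix protein (COMP), was at 7.56, 6.77 and 6.68 in parental Kuramochi and at the bottom in all parental libraries of the other 3 lines. ADAMTS15 and ADAMTS1, which cut the proteoglycan versican, were highest in EFO-21, with means of 9.37 and 9.90. ADAMTS15 was lowest in OV-90, at 2.07 and 3.03. ADAMTS5, a main cutter of aggrecan, had means of 6.31 in Kuramochi and 5.99 in OVSAHO, which were not told apart (adjusted p = 0.331), and of 1.58 in OV-90 and 1.47 in EFO-21.

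TIMP1, a broad inhibitor of soluble MMPs (Gene 7076, chrX:47441807-47446188), was at 10.68 and 10.30 in OV-90, 8.60, 8.98 and 9.16 in Kuramochi and 8.40, 8.51 and 8.55 in EFO-21. In OVSAHO it was at 3.49, 3.33 and 3.20, the lowest of the 4 lines (adjusted p = 1.93e-09 against EFO-21). TIMP2 (Gene 7077, chr17:76849059-76921469) was well above the bottom throughout, with means from 8.10 in Kuramochi to 10.09 in EFO-21. TIMP3, which is held in the matrix and also blocks ADAMTS4 and ADAMTS5, had means of 9.94 in Kuramochi, 9.64 in OVSAHO and 7.75 in EFO-21. In OV-90 it was at 5.30 and 4.44. TIMP4 averaged 4.65 in OV-90 and 3.94 in EFO-21 and was at the bottom in parental Kuramochi and OVSAHO.

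**Figure D1:**
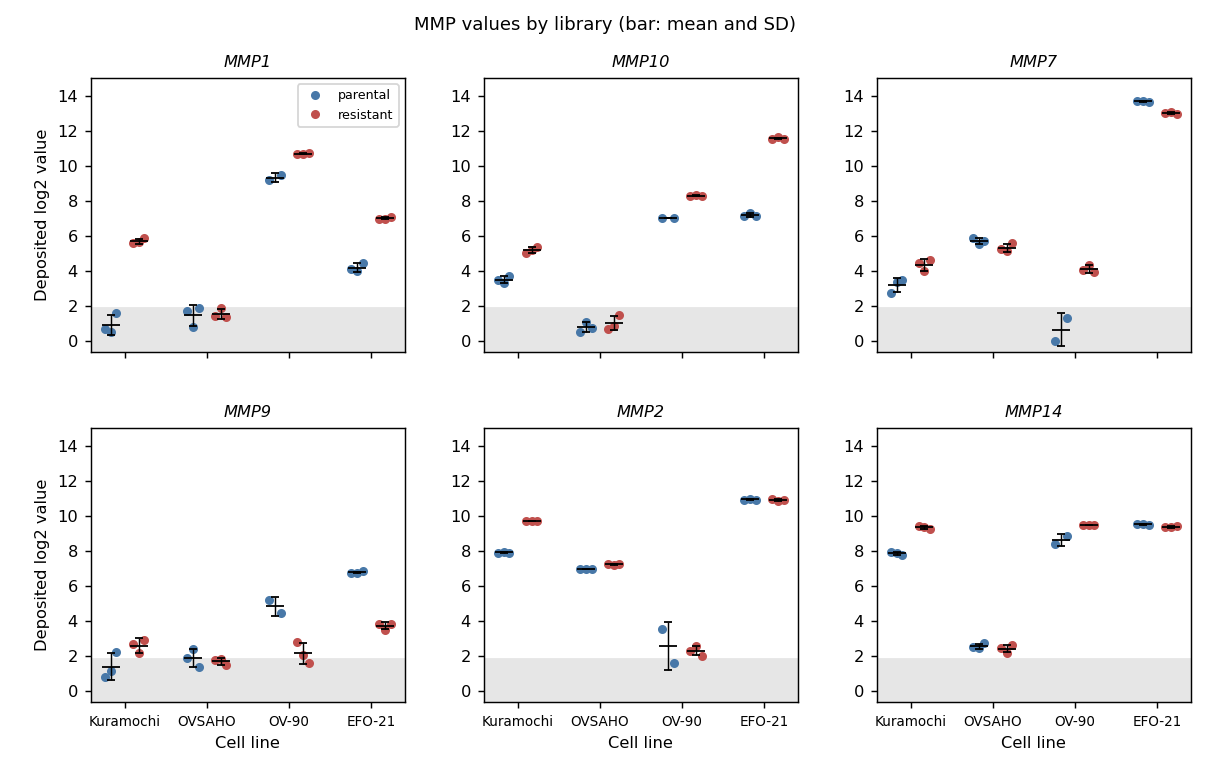
Deposited log2 values of 6 MMPs in each of the 23 libraries by cell line, parental in blue and resistant in red, with the mean and SD of each group as bars and the range up to 1.87, the highest 10th percentile of a library, in grey. MMP10 lies near 11.56 in resistant EFO-21 and in the grey range in all OVSAHO libraries.

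Resistant Kuramochi had 22 called members, more than any other line. The collagenase MMP1, gelatinase A and both MT1-MMP and MT2-MMP rose together with TIMP2 and with ADAMTS2 and ADAMTS14, which trim procollagen. The other measured collagenase, MMP13, was at the bottom in every parental and resistant library and was not called (adjusted p = 0.396). Of 7 ADAMTS genes for proteoglycan-cutting enzymes 3 fell, where 10.6% of all genes did, and 4 were not called. A gene was called at an adjusted p under 0.05, over all 21658 genes, with a change of at least 2-fold. Where groups are said not to overlap, here and in the other lines, this only describes the values of the genes named. It is no separate evidence, since called genes were picked by the same values, and the share of all genes without overlap is not given. Of the 40 members 16 were higher, where 11.8% of all genes were, and 6 were lower, where 10.6% were. The median change of the members was 0.55 on the log2 scale and that of all genes -0.02. By family, 9 of 18 MMPs were higher and 3 lower, 5 of 18 ADAMTS higher and 3 lower, and 2 of 4 TIMPs higher and 0 lower by limma (0 at an unadjusted p under 0.05).

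ADAMTS2 removes the N-terminal propeptide of fibrillar procollagens (Gene 9509, chr5:178537854-178772462). Its values were 3.84, 3.67 and 3.54 in the parental and 9.18, 9.12 and 9.15 in the resistant libraries. All resistant libraries lay far above all parental ones. The mean went from 3.68 ± 0.15 (SD, n = 3) to 9.15 ± 0.03 (SD, n = 3), 44.4-fold higher (SE of the log2 difference 0.11, adjusted p = 3.44e-06). ADAMTS14, with the same role, went from 3.71, 3.42 and 3.41 to 6.54, 6.49 and 6.23, 7.51-fold higher (adjusted p = 6.05e-05). The third procollagen protease, ADAMTS3, had a parental mean of 4.15 and a resistant mean of 4.86 and was not called (adjusted p = 0.0525).

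MMP1 went from the bottom to the middle of the range. It was at 0.68, 0.53 and 1.60 in the parental libraries and at 5.57, 5.68 and 5.86 in the resistant ones (adjusted p = 9.77e-05), with no overlap. MMP2 was at 7.92, 7.96 and 7.92 before and 9.74, 9.70 and 9.73 after, a tight pair of groups 3.45-fold apart (adjusted p = 6.93e-06). MMP14 values were 7.94, 7.87 and 7.80 and then 9.42, 9.36 and 9.27, 2.78-fold higher (adjusted p = 2.59e-05). So the gelatinase and the membrane enzyme that activates it both rose, each without overlap between the groups. TIMP2, which takes part in that activation and also inhibits MMP2, rose from 8.15, 8.09 and 8.05 to 10.17, 10.12 and 10.09, 4.09-fold (adjusted p = 6.25e-06).

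Further MMPs rose in Kuramochi. MMP10 was at 3.51, 3.33 and 3.69 and then 5.02, 5.19 and 5.34 (3.19-fold, adjusted p = 0.000691). MMP24, which encodes MT5-MMP, was at 4.54, 4.42 and 4.38 and then 5.85, 5.84 and 5.67 (2.53-fold, adjusted p = 0.000532). MMP7 was at 2.76, 3.39 and 3.49 in parental and 4.46, 3.99 and 4.65 in resistant libraries, higher without overlap by 2.21-fold (adjusted p = 0.0189). The MMP7 call ended when library 4, 16 or 18 was left out, at adjusted p of 0.0355, 0.0651 and 0.0613 and log2 changes of 0.92, 1.10 and 1.0. MMP12, known as macrophage elastase, was at the bottom in the parental libraries, at 0.01, 1.36 and 1.38, and at 3.02, 4.12 and 3.44 in the resistant ones (adjusted p = 0.00522). TIMP4 likewise went from the bottom, at 0.50, 1.31 and 0.03, to 4.05, 2.52 and 3.81 (adjusted p = 0.00496). TIMP1 and TIMP3 were not called, with means of 8.91 and 9.25 for TIMP1 and 9.94 and 10.20 for TIMP3.

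Among the falls in Kuramochi, MMP16 went from 4.54, 4.12 and 4.12 to 1.42, 1.83 and 1.19, 6.87-fold lower (adjusted p = 0.00031). MMP23B, a membrane-bound MMP that furin-like enzymes release, went from 5.44, 6.05 and 6.10 to 3.49, 2.96 and 3.39, 6-fold lower (adjusted p = 0.000457). MMP11 fell from 4.72, 5.38 and 4.93 to 3.01, 3.86 and 3.64 (2.84-fold, adjusted p = 0.00727). For these 3 genes every resistant library was below every parental one. ADAMTS8 fell to the bottom, from 3.01, 3.47 and 3.68 to 1.46, 0.94 and 1.63 (adjusted p = 0.00173). Its neighbour ADAMTS15 fell from 9.04, 8.62 and 8.54 to 7.22, 7.26 and 7.02, 2.96-fold (adjusted p = 0.000381).

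The remaining calls in Kuramochi were outside the naming rule and are named after their values were seen. MMP15 (MT2-MMP) was higher by 1.55 on the log2 scale and MMP19 by 1.90 (adjusted p = 6.05e-05 and 0.00241). ADAMTS7 and ADAMTS12, which both cut COMP, were higher by 1.93 and 1.57 (adjusted p = 0.000115 and 0.00537). ADAMTS4, an aggrecan-cutting enzyme, fell by 1.69 (adjusted p = 0.00929). Groups did not overlap for these 5 genes. ADAMTS10 is described with the other lines. MMP9 had parental values of 0.81, 1.18 and 2.27 and resistant values of 2.72, 2.17 and 2.96, which overlapped, and was not called (adjusted p = 0.0615).

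**Figure D2:**
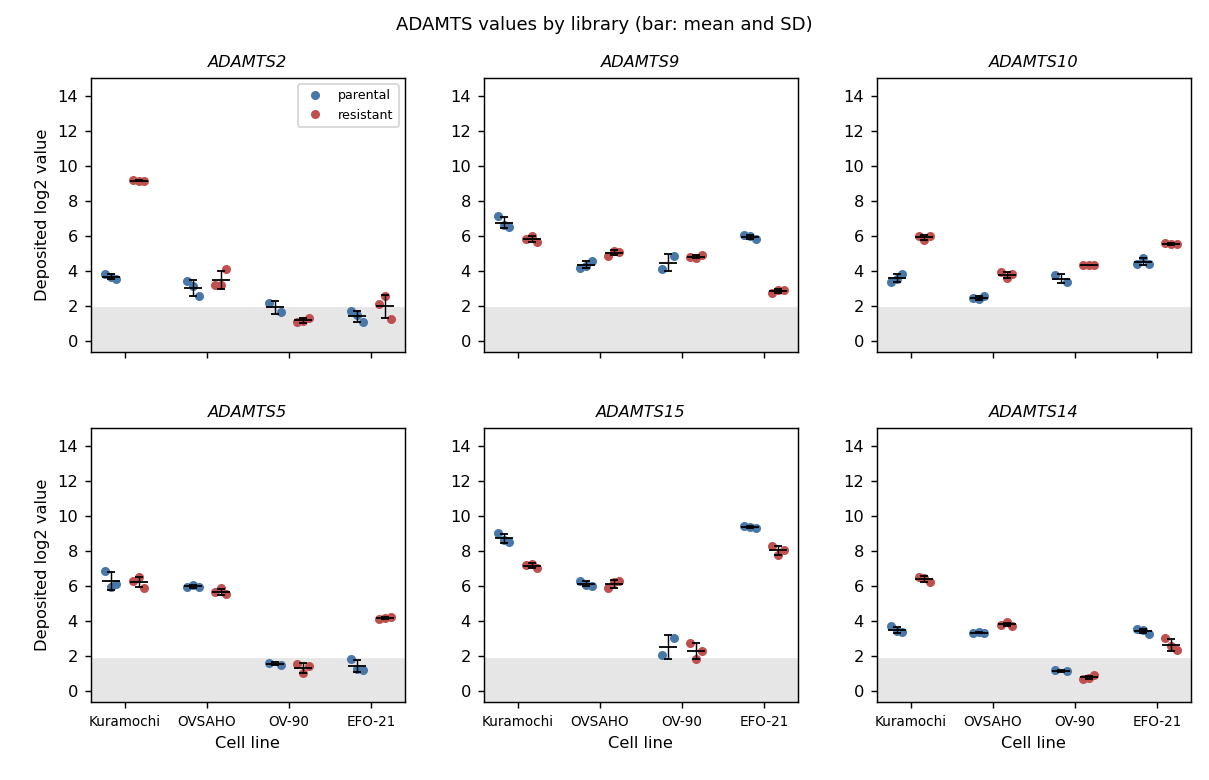
Deposited log2 values of 6 ADAMTS genes in each of the 23 libraries by cell line, parental in blue and resistant in red, with the mean and SD of each group as bars and the range up to 1.87 in grey. ADAMTS2 in Kuramochi lies near 3.68 in parental and near 9.15 in resistant libraries.

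Resistant OVSAHO had 5 called members, fewer than any other line. The genes that rose encode epilysin, a procollagen protease, a microfibril-binding ADAMTS and MT3-MMP. Of the 40 members 4 were higher, where 3.93% of all genes were, and 1 was lower, where 3.83% were. The members' median change was 0.02 and that of all genes 0.00. Of the families, 2 MMPs and 2 ADAMTS were higher and 1 MMP lower. No ADAMTS was lower by limma (2 at an unadjusted p under 0.05), and 0 of 4 TIMPs were called (2 higher and 1 lower at an unadjusted p under 0.05).

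MMP28, epilysin, is known from skin and other epithelia. It was at the bottom in parental OVSAHO, at 0.60, 1.60 and 0.88, and at 2.36, 2.91 and 3.12 in the resistant libraries (adjusted p = 0.0105). ADAMTS10, whose protein binds fibrillin microfibrils, was at 2.44, 2.40 and 2.60 and then 3.92, 3.60 and 3.82, 2.46-fold higher (adjusted p = 0.00282). ADAMTS3 was at 2.66, 2.61 and 2.85 and then 3.94, 3.88 and 4.09, 2.41-fold higher (adjusted p = 0.0025). MMP16 was at 4.60, 4.16 and 4.75 and then 5.68, 5.71 and 5.78, 2.32-fold higher (adjusted p = 0.00433). In each of these 4 genes, picked by their calls, all 3 resistant libraries were above all 3 parental ones.

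MMP12 was the member called lower in OVSAHO, at 2.41, 1.71 and 1.50 in parental libraries, close to the bottom, and at the bottom, at 0.01, 0.02 and 0.02, in resistant ones (adjusted p = 0.00367). With low values raised to the 10th percentile it was no longer called, nor was MMP28, at log2 changes of -0.23 and 0.99. Leaving out library 19 made the number of lower members 2 in place of 1.

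The gelatinase, matrilysin and MT1-MMP genes were not called in OVSAHO. MMP2 was at 6.97, 6.97 and 6.97 and then 7.26, 7.22 and 7.29, a log2 difference of 0.29 that was under the 2-fold minimum (adjusted p = 0.00522). MMP14 was at 2.51, 2.46 and 2.75 and 2.46, 2.22 and 2.65, which overlapped. MMP7 had means of 5.70 and 5.33, and MMP9 of 1.90 and 1.72. TIMP1 was at 3.49, 3.33 and 3.20 and then 4.18, 4.24 and 4.23, without overlap but under 2-fold (1.83-fold, adjusted p = 0.00732). TIMP2 differed by 0.62 and TIMP3 by -0.43, both under 2-fold, and TIMP4 was listed at 0.01 to 0.02 in all 6 libraries.

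Resistant OV-90 had higher MMP7, MMP1 and MMP10 and lower MMP9, TIMP1 and TIMP3, and of its 2 measured collagenases MMP1 was higher and MMP13 lower. Of the 40 members 5 were higher, where 9.50% of all genes were, and 6 were lower, where 6.56% were. The members' median change was -0.26 and that of all genes -0.06. Of the MMPs 4 of 18 were higher and 4 lower, and of the TIMPs 2 of 4 were lower and 0 higher (1 at an unadjusted p under 0.05). Of the ADAMTS 1 was higher and 0 lower by limma (4 at an unadjusted p under 0.05).

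MMP7 was at the bottom in both parental libraries of OV-90, at -0.01 and 1.32, and at 4.03, 4.36 and 3.94 in the resistant ones (adjusted p = 0.0143). The difference of means was 3.45, and it was 2.79 without library 2 and 4.12 without library 3. MMP10 was at 7.0 and 7.0 and then 8.29, 8.33 and 8.28, 2.47-fold higher (adjusted p = 0.00383), and stayed called when any 1 library was left out. MMP1 was at 9.16 and 9.49 and then 10.68, 10.66 and 10.73, 2.57-fold higher (adjusted p = 0.00675). All 3 genes were higher in each resistant library than in either parental one. ADAMTS20, a versican-cutting enzyme, was at 1.0 and 1.99 and then 3.36, 3.47 and 2.94 (3.39-fold, adjusted p = 0.0295). MMP24 was at 3.07 and 4.08 and then 4.87, 4.96 and 5.08 (2.63-fold, adjusted p = 0.0393). For both, the parental libraries were about 1 log2 unit apart, and without library 2 the calls ended, at log2 changes of 1.26 for ADAMTS20 and 0.88 for MMP24. Without library 13, 14 or 15 the calls of MMP7 (adjusted p = 0.0728, 0.0652 and 0.0716), ADAMTS20 (0.102, 0.0913 and 0.0921) and MMP24 (0.115, 0.111 and 0.128) ended. That of MMP1 ended without library 13 or 15 (0.0515 and 0.0511).

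Of the falls in OV-90, MMP9 went from 5.22 and 4.48 to 2.82, 2.10 and 1.63, 6.35-fold lower (adjusted p = 0.0208). MMP13 went from 6.61 and 6.39 to 4.65, 4.10 and 4.37, 4.36-fold lower (adjusted p = 0.0105). TIMP3 went from 5.30 and 4.44 to 2.68, 2.94 and 2.36, 4.62-fold lower (adjusted p = 0.0192). TIMP1 went from 10.68 and 10.30 to 9.22, 9.34 and 9.12, 2.4-fold lower (adjusted p = 0.011). The groups did not overlap for any of these 4 genes. MMP23B, at 8.56 and 7.65 and then 7.03, 7.11 and 6.85, fell 2.15-fold (adjusted p = 0.0421). MMP17, which encodes a lipid-anchored MMP and was named after its values were seen, fell by 1.58 on the log2 scale (adjusted p = 0.0142). Without library 2 the calls of MMP9 and MMP23B ended, at log2 changes of -2.29 and -0.65. Without library 13, 14 or 15 all 6 ended. The adjusted p was then 0.0637, 0.0768 and 0.0825 for MMP9, 0.0515, 0.0517 and 0.0648 for MMP13, and 0.0858, 0.0694 and 0.086 for TIMP3. It was 0.0668, 0.0542 and 0.0648 for TIMP1, 0.119, 0.103 and 0.13 for MMP23B and 0.0754, 0.0652 and 0.0755 for MMP17.

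TIMP4 in OV-90 shows how far 1 library can sit from its group. It was at 4.75 and 4.56 in parental and 3.14, 0.07 and 3.18 in resistant libraries, with library 14 at 0.07, and was not called (adjusted p = 0.123). TIMP2 was at 8.53 and 8.24 and 8.78, 8.73 and 8.73, also not called (adjusted p = 0.0532). MMP14 was at 8.39 and 8.86 and 9.51, 9.50 and 9.51, 1.84-fold apart and under the 2-fold minimum (adjusted p = 0.0209). MMP2 was at 3.58 and 1.61 and 2.33, 2.60 and 2.05, with the resistant values between the parental ones.

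Calls in OV-90 mostly needed all 3 resistant libraries. The fit took 1 spread per gene for both groups, while the median SD was 0.257 in parental and 0.114 in resistant OV-90. How far the adjusted p in OV-90 depend on that was not tested. Without library 13, 14 or 15 the higher members numbered 1, 2 and 1 and the lower ones 0, 0 and 0, and the higher genes among all genes numbered 181, 263 and 208 in place of 2058. The lower genes among all genes numbered 128, 162 and 148 in place of 1420. Log2 changes moved less: that of MMP9 was -2.98, -2.62 and -2.39, and that of TIMP3 -2.22, -2.35 and -2.06.

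**Figure D3:**
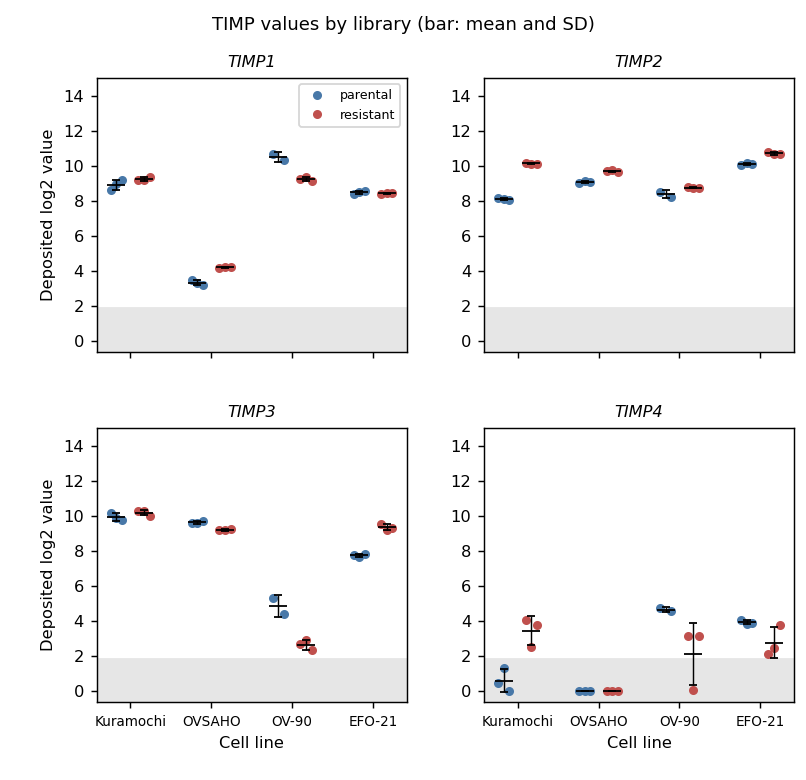
Deposited log2 values of the 4 TIMPs in each of the 23 libraries by cell line, parental in blue and resistant in red, with the mean and SD of each group as bars and the range up to 1.87 in grey. TIMP3 is lower in resistant OV-90 (mean 2.66 against 4.87) and higher in resistant EFO-21 (mean 9.36 against 7.75).

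Resistant EFO-21 had higher RNA of the stromelysin MMP10, the collagenase MMP1, epilysin and TIMP3, and lower MMP9 and ADAMTS9. The other measured collagenase, MMP13, had means of 1.13 and 1.39 and was not called (adjusted p = 0.813). Of the 40 members 8 were higher, where 7.11% of all genes were, and 4 were lower, where 7.15% were. The members' median change was 0.29 and that of all genes 0.01. Of the MMPs 5 of 18 were higher and 1 lower, of the ADAMTS 2 of 18 higher and 3 lower, and of the TIMPs 1 of 4 higher and 0 lower by limma (1 at an unadjusted p under 0.05). Without library 10 the higher members numbered 5 in place of 8, since MMP11, ADAMTS10 and MMP3 lost their calls.

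MMP10 was at 7.11, 7.33 and 7.11 in parental and 11.53, 11.61 and 11.53 in resistant EFO-21. The mean went from 7.18 ± 0.13 (SD, n = 3) to 11.56 ± 0.04 (SD, n = 3), 20.7-fold higher (SE of the log2 difference 0.07, adjusted p = 6.81e-06). The gap between the groups was many times the spread within them. MMP1 was at 4.11, 3.99 and 4.46 and then 6.96, 6.96 and 7.06, 7-fold higher (adjusted p = 6.16e-05). MMP28 was at 4.91, 4.46 and 5.0 and then 7.44, 7.51 and 7.21, 6.05-fold higher (adjusted p = 0.00013). ADAMTS5 rose from the bottom or near it, at 1.86, 1.30 and 1.25, to 4.15, 4.17 and 4.23 (adjusted p = 0.00024). No group of these 4 genes overlapped its counterpart.

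TIMP3 was at 7.78, 7.66 and 7.82 and then 9.54, 9.23 and 9.31, 3.05-fold higher (adjusted p = 8.2e-05). TIMP2 was at 10.05, 10.15 and 10.08 and then 10.79, 10.66 and 10.64, without overlap and under 2-fold (adjusted p = 0.000311). TIMP1 had means of 8.48 and 8.41. These 3 inhibitor genes were all well above the bottom in EFO-21. TIMP4 was at 4.06, 3.83 and 3.92 and then 2.11, 2.48 and 3.77, with a wide spread after resistance, and was not called (adjusted p = 0.0715).

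MMP11 was at 6.14, 6.75 and 6.31 and then 7.53, 7.53 and 7.45 (2.15-fold, adjusted p = 0.00217), and without library 10 its log2 change was 0.98. ADAMTS10 was at 4.40, 4.75 and 4.40 and then 5.58, 5.54 and 5.51 (2.03-fold, adjusted p = 0.00188), and its log2 change was 0.97 without library 10 and 0.96 without library 12. Both calls thus sat close to the 2-fold limit. Parental values of MMP3 were all 0.00, and its values were 1.29, 0.25 and 1.59 after resistance, all at the bottom. Its call (adjusted p = 0.0473) ended without library 10, 11, 12, 22 or 24, at adjusted p of 0.109, 0.108, 0.108, 0.129 and 0.112.

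The falls in EFO-21 were led by ADAMTS9, which cuts versican and aggrecan, and MMP9. ADAMTS9 (Gene 56999, chr3:64501330-64673676) went from 6.05, 5.99 and 5.82 to 2.73, 2.93 and 2.90, 8.58-fold lower (adjusted p = 4.47e-05). MMP9 went from 6.78, 6.78 and 6.84 to 3.85, 3.51 and 3.87, 8.32-fold lower (adjusted p = 3.98e-05). In both genes the groups were clearly apart. ADAMTS15 went from 9.42, 9.36 and 9.34 to 8.29, 7.80 and 8.06, 2.49-fold lower (adjusted p = 0.000437). ADAMTS18 went from 2.38, 1.66 and 2.79 to the bottom, at 0.49, 0.28 and 0.59 (adjusted p = 0.00406), and was no longer called with low values raised to the 10th percentile, at a log2 change of -0.50.

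The matrilysin gene, gelatinase A and MT1-MMP were not called in EFO-21. MMP7 was at 13.69, 13.70 and 13.65 and then 13.00, 13.04 and 12.95, lower in every resistant library by 1.61-fold, under the minimum for a call (adjusted p = 9.31e-05). MMP2 was at 10.94, 10.99 and 10.93 and 10.97, 10.86 and 10.92, which overlapped (adjusted p = 0.462). MMP14 was at 9.56, 9.55 and 9.50 and 9.37, 9.35 and 9.41, 1.12-fold lower without overlap and under the minimum (adjusted p = 0.00815).

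**Figure D4:**
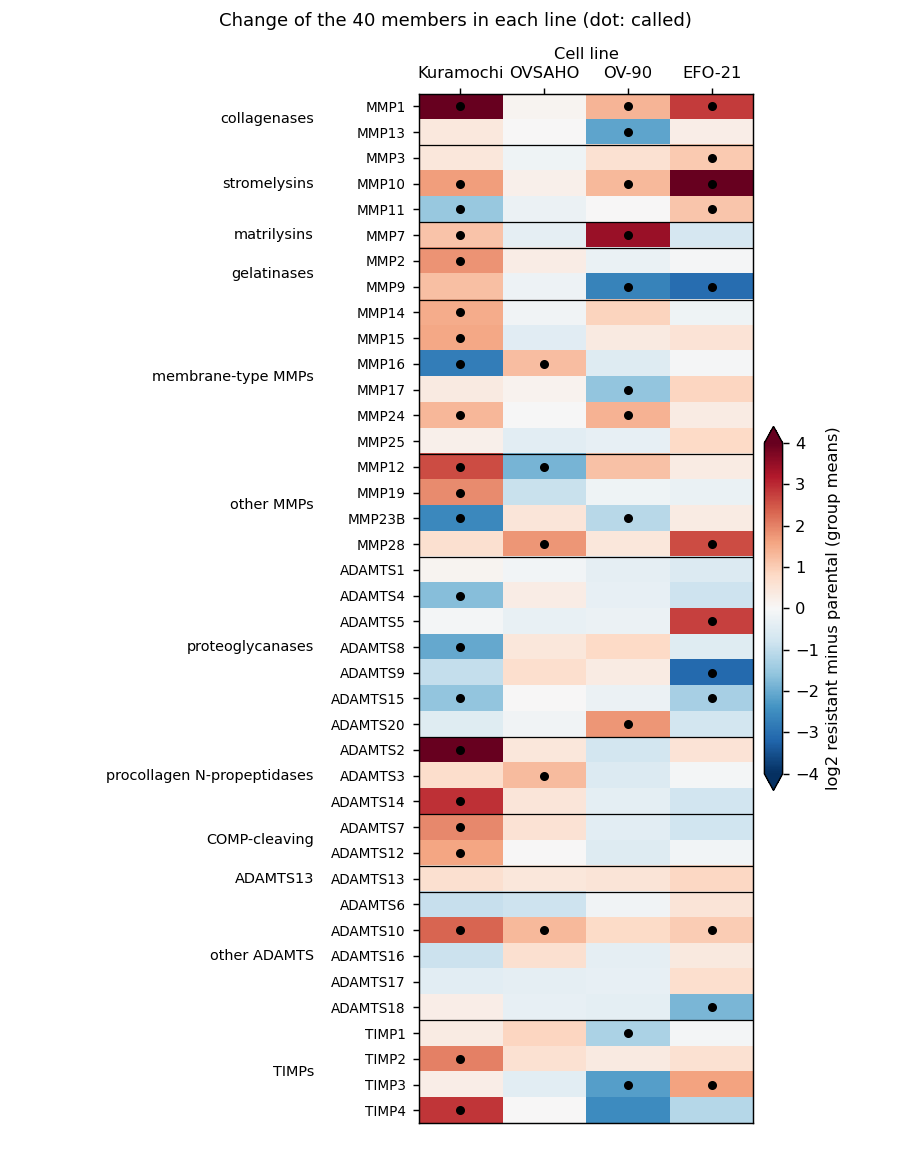
Log2 difference of the group means, resistant minus parental, for the 40 members in the 4 lines, grouped by the role of the enzyme, with a black dot where the gene was called. Colours are limited to 4 log2 units either way, and a difference against a group at the bottom is not a measured fold. Kuramochi has 22 dots, 16 higher and 6 lower, and OVSAHO 5.

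Side by side, 34 of 40 members were called in at least 1 line, where 43.6% of all genes were, and 6 in none, where 56.4% were. The 6 were ADAMTS1, ADAMTS6, ADAMTS13, ADAMTS16, ADAMTS17 and MMP25. In at least 2 lines 6 members were higher, where 4.76% of all genes were, and 3 were lower, where 4.50% were. The 6 that rose were the collagenase MMP1, the stromelysin MMP10, matrilysin MMP7, MT5-MMP gene MMP24, epilysin MMP28 and ADAMTS10. MMP1 and MMP10 rose in Kuramochi, OV-90 and EFO-21, and ADAMTS10 in Kuramochi, OVSAHO and EFO-21. Some of these counts rest on calls that ended when 1 library was left out or low values were raised. The MMP28 call in OVSAHO ended with low values raised (log2 change 0.99), that of ADAMTS10 in EFO-21 without library 10 or 12 (log2 changes 0.97 and 0.96), and that of MMP1 in OV-90 without library 13 or 15 (adjusted p = 0.0515 and 0.0511). Without library 13, 14 or 15 the adjusted p in OV-90 was 0.0637, 0.0768 and 0.0825 for MMP9, 0.119, 0.103 and 0.13 for MMP23B, 0.0728, 0.0652 and 0.0716 for MMP7 and 0.115, 0.111 and 0.128 for MMP24. Without library 2 the calls of MMP9, MMP23B and MMP24 ended too, at log2 changes of -2.29, -0.65 and 0.88. The Kuramochi call of MMP7 ended without library 4, 16 or 18, at adjusted p of 0.0355, 0.0651 and 0.0613 and log2 changes of 0.92, 1.10 and 1.0.

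ADAMTS10 (Gene 81794, chr19:8645124-8675620) was at 3.37, 3.55 and 3.84 in parental and 5.99, 5.77 and 5.97 in resistant Kuramochi, 5-fold higher (adjusted p = 0.000186). In OV-90 it was at 3.75 and 3.38 and then 4.35, 4.32 and 4.34, which did not overlap but were under 2-fold apart (adjusted p = 0.0451). So the resistant libraries were above the parental ones in all 4 lines, as they also were for TIMP2, ADAMTS13 and MMP28. Log2 changes in Kuramochi, OVSAHO, OV-90 and EFO-21 were 2.03, 0.62, 0.36 and 0.60 for TIMP2. For ADAMTS13, called in no line, they were 0.64, 0.45, 0.53 and 0.83. MMP28 was at the bottom in all OV-90 libraries. The size of the ADAMTS10 change differed between lines (adjusted p = 2.94e-05 by the F-test of that difference).

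The 3 genes that fell in 2 lines were MMP9 in OV-90 and EFO-21, MMP23B in Kuramochi and OV-90, and ADAMTS15 in Kuramochi and EFO-21. By limma's F-test on the difference of the change between lines, 37 of 40 members differed at an adjusted p under 0.05, where 75.1% of all genes did. The 3 that did not were ADAMTS13 (adjusted p = 0.424), which cuts von Willebrand factor, ADAMTS6 (0.202) and MMP3 (0.551). The collagenase MMP1 gave an adjusted p of 4.22e-08, the stromelysin MMP10 3.41e-10 and matrilysin MMP7 9.83e-08. For the gelatinases it was 0.000801 (MMP2) and 2.09e-06 (MMP9), and for MMP14 5.51e-08. ADAMTS2 gave 5.07e-09 and TIMP2 5.73e-11.

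Called in both directions were 4 members, where 6.25% of all genes were. MMP11 was higher in EFO-21 and lower in Kuramochi, MMP12 higher in Kuramochi and lower in OVSAHO, MMP16 higher in OVSAHO and lower in Kuramochi, and TIMP3 higher in EFO-21 and lower in OV-90. The adjusted p of the difference between lines was 4.33e-06, 1.66e-05, 1.04e-08 and 4.5e-09, which is no separate evidence, since the genes were picked by opposite calls in the same libraries and 75.1% of all genes pass that test. The MMP11 call in EFO-21 ended without library 10 (log2 change 0.98), the TIMP3 call in OV-90 without library 13, 14 or 15 (adjusted p = 0.0858, 0.0694 and 0.086), and the MMP12 call in OVSAHO with low values raised (log2 change -0.23).

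**Figure D5:**
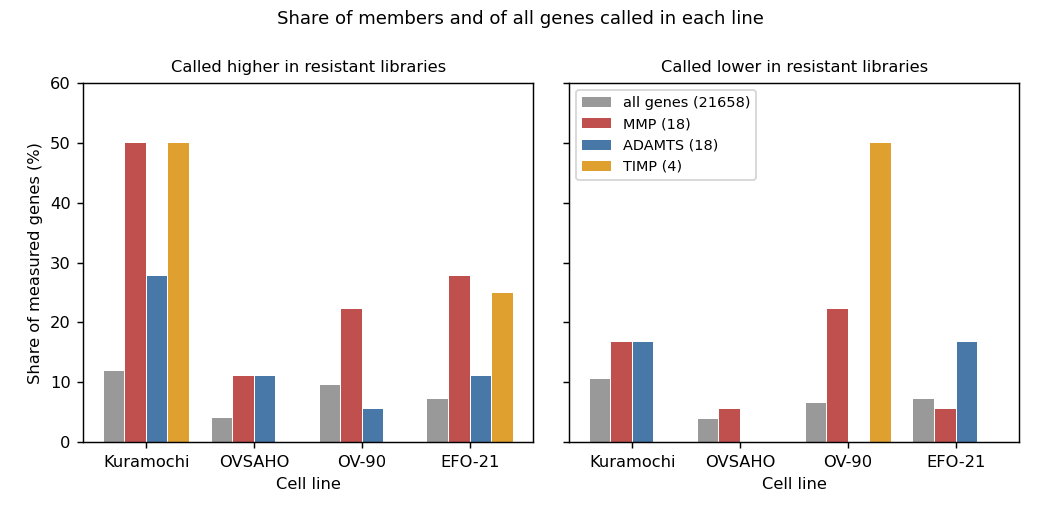
Share of the 18 MMPs, 18 ADAMTS, 4 TIMPs and of all 21658 genes that were called higher or lower in the resistant libraries of each line, in percent. MMPs called higher make up 50% in Kuramochi and 11.1% in OVSAHO, and a single TIMP is 25% of its family.

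Of the 6 measured genes of the chromosome 11 group, 4 were higher in Kuramochi, where 11.8% of all genes were, 3 in OV-90, where 9.50% were, and 3 in EFO-21, where 7.11% were. In OV-90 1 was lower, where 6.56% of all genes were, and in OVSAHO 1, where 3.83% were. In Kuramochi these were MMP1, MMP7, MMP10 and MMP12, in OV-90 MMP1, MMP7 and MMP10 with MMP13 lower, and in EFO-21 MMP1, MMP3 and MMP10. MMP3 was at the bottom in all 6 EFO-21 libraries, and its call ended without library 10, 11, 12, 22 or 24, at adjusted p of 0.109, 0.108, 0.108, 0.129 and 0.112. In OV-90 the calls of MMP7 and MMP13 ended without library 13, 14 or 15, at adjusted p of 0.0728, 0.0652 and 0.0716 for MMP7 and 0.0515, 0.0517 and 0.0648 for MMP13, and that of MMP1 ended without library 13 or 15, at 0.0515 and 0.0511. MMP7 in Kuramochi was not called without library 4, 16 or 18, at log2 changes of 0.92, 1.10 and 1.0. MMP12 in OVSAHO was not called with low values raised to the 10th percentile.

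WTAPP1, a transcribed pseudogene on the opposite strand, spans MMP10 and MMP1 and has an exon over those of MMP1 and MMP3. WTAPP1 was at 4.31, 3.23 and 3.60 in parental and 6.50, 6.60 and 6.41 in resistant Kuramochi (6.91-fold higher, adjusted p = 0.000501) and at 7.71 and 7.66 and 8.95, 9.0 and 8.92 in OV-90 (2.42-fold higher, adjusted p = 0.00382). In EFO-21 it was at 4.33, 3.95 and 3.76 and 4.98, 4.52 and 4.07, which overlapped, and in OVSAHO at 0.01 to 0.02. The library kit keeps strand, but whether strand was used in counting is not stated, so reads of WTAPP1 and MMP1 over shared bases cannot be told apart here.

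Among the ADAMTS genes, 2 pairs are neighbours. ADAMTS8 and ADAMTS15 lie beside each other on chromosome 11 and both fell in Kuramochi. In EFO-21 ADAMTS15 fell, and ADAMTS8 was at 4.38, 4.64 and 4.35 and 4.15, 4.28 and 3.54 and was not called. ADAMTS1 and ADAMTS5 are neighbours on chromosome 21. In EFO-21 ADAMTS5 rose, and ADAMTS1 was at 9.93, 9.86 and 9.92 and then 9.45, 9.29 and 9.34, 1.45-fold lower and under the minimum (adjusted p = 0.000413).

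Other transcripts overlap or resemble members, and their values moved with them in part. MMP23A, a near copy of MMP23B, was 6.96-fold lower in resistant Kuramochi and 2.22-fold lower in OV-90 (adjusted p = 0.000328 and 0.0331). The pseudogene ADAMTS7P1 was 4.3-fold higher in Kuramochi (adjusted p = 0.000183), as ADAMTS7 was. In EFO-21 ADAMTS7P1 was lower, from a mean of 1.47 with 2 of 3 libraries at the bottom to 0.00 (adjusted p = 0.00938), and ADAMTS7 differed by -0.79, under the 2-fold minimum (adjusted p = 0.011). ADAMTS9-AS1, opposite ADAMTS9, was at 3.63, 2.85 and 2.82 in parental and at the bottom in resistant EFO-21 (adjusted p = 0.00634). In Kuramochi ADAMTS9-AS1 was also lower, at -1.34 (adjusted p = 0.00171), where ADAMTS9 differed by -0.94, under the 2-fold minimum. CEP295NL, on the same strand as TIMP2 and sharing exon bases with it, was higher in Kuramochi, OVSAHO and EFO-21, by log2 changes of 3.21, 1.11 and 2.33. MMP24OS, opposite MMP24, was higher in Kuramochi (1.18) and lower in OVSAHO (-1.06), where MMP24 differed by -0.02. In OV-90 MMP24OS differed by -0.95 and was not called (adjusted p = 0.0916), where MMP24 was called higher at 1.39. The part of these transcripts in the members' values was not tested.

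Other genes of the pathway were taken from 6 lists: plasminogen activation, other inhibitors and activators, ADAM proteases, astacins, ADAMTS-like proteins and the lecticans that ADAMTS enzymes cut. Of 52 measured, 10 were higher and 5 lower in Kuramochi, where 11.8% and 10.6% of all genes were, and 3 and 7 in OVSAHO, where 3.93% and 3.83% were. In OV-90 8 were higher and 4 lower, where 9.50% and 6.56% of all genes were, and in EFO-21 6 and 8, where 7.11% and 7.15% were. Leaving out 1 library moved some counts by more than 1.5 times: 3 lower in Kuramochi without library 4, 5 higher in OVSAHO without library 9 and 4 lower without library 20, and 7 lower in OV-90 without library 3. In OV-90 the higher ones numbered 2, 3 and 3 and the lower ones 1, 1 and 1 without library 13, 14 or 15. Median changes of the 12 plasminogen activation genes were 0.62, -0.57, -0.50 and 0.08 in Kuramochi, OVSAHO, OV-90 and EFO-21, against -0.02, 0.00, -0.06 and 0.01 for all genes.

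PLG, the plasminogen gene, fell to the bottom in 3 lines. It went from 5.09, 6.03 and 3.44 to 0.00, 0.00 and 0.00 in Kuramochi, from 2.79, 5.25 and 4.39 to 1.63, 0.02 and 1.82 in OVSAHO and from 3.92 and 5.94 to 0.06, 0.07 and 0.06 in OV-90 (adjusted p = 0.0013, 0.0299 and 0.0139). The difference of means was -4.26 without library 5 and -5.56 without library 6 in Kuramochi, -3.66 without library 7 in OVSAHO, and -5.88 and -3.85 without library 2 or 3 in OV-90. The PLG call in OVSAHO ended without library 8, 9, 19, 20 or 21, at adjusted p of 0.0783, 0.0807, 0.0583, 0.0805 and 0.0551. Without library 13, 14 or 15 the PLG call in OV-90 ended (adjusted p = 0.0728, 0.065 and 0.0733).

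PLAT, the tissue activator, went from 2.95, 3.02 and 2.84 to 1.94, 1.52 and 1.99 in OVSAHO and from 4.69, 4.83 and 4.61 to 2.58, 3.22 and 2.73 in EFO-21, 2.18-fold and 3.65-fold lower (adjusted p = 0.00713 and 0.000991). In OVSAHO it was not called without library 20, at a log2 change of -0.97. SERPINB2, a serine protease inhibitor gene, fell from 7.67 and 7.82 to 6.63, 6.65 and 6.63 in OV-90 (adjusted p = 0.00675), a call that ended without library 13, 14 or 15 (adjusted p = 0.057, 0.0512 and 0.0536). In Kuramochi SERPINB2 was called lower with all 6 libraries at the bottom, and not without library 4, where the difference of means was -0.98.

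SPOCK1 encodes testican, a matrix proteoglycan. It was at 4.91, 5.54 and 5.61 and then 8.45, 8.29 and 8.46 in Kuramochi (8.23-fold higher, adjusted p = 8.71e-05), and in OV-90 it went from the bottom, at 0.22 and 0.18, to 5.52, 5.72 and 5.37 (adjusted p = 0.00287). Its relative SPOCK2 fell in Kuramochi, from 5.54, 5.72 and 5.88 to 3.07, 3.11 and 2.92, and in OVSAHO, from 4.99, 4.81 and 4.68 to 3.68, 3.47 and 3.54 (adjusted p = 8.71e-05 and 0.00222). In OV-90 SPOCK2 rose by 1.19 (adjusted p = 0.0105), a call that ended without library 13, 14 or 15 (adjusted p = 0.0652, 0.0528 and 0.0662). PCSK5, a proprotein convertase of the furin family, rose in Kuramochi, from 3.80, 3.32 and 3.42 to 4.71, 4.64 and 4.54, and in OV-90, from 4.58 and 4.48 to 6.24, 6.19 and 6.31, and fell to the bottom in EFO-21, from 2.37, 2.48 and 2.45 to 1.20, 1.59 and 1.20 (adjusted p = 0.00471, 0.00644 and 0.00252). The OV-90 call of PCSK5 ended without library 13, 14 or 15 (adjusted p = 0.059, 0.0517 and 0.0564).

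ADAM12, a membrane protease with a disintegrin domain, was at 5.12, 4.41 and 4.41 in parental and 10.42, 10.50 and 10.36 in resistant Kuramochi, 55-fold higher (adjusted p = 1.16e-05). In OV-90 it went from the bottom, at 0.22 and 0.18, to 2.43, 2.75 and 2.24 (adjusted p = 0.00895), a call that ended without library 13 (adjusted p = 0.0516). In EFO-21 it fell to the bottom, from 3.06, 3.68 and 1.74 to 0.23, 0.00 and 0.23 (adjusted p = 0.00578).

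VCAN encodes versican, a proteoglycan cut by several ADAMTS enzymes. It was at 2.22, 2.18 and 2.63 and then 5.76, 5.63 and 5.39 in Kuramochi (9.52-fold higher, adjusted p = 9.04e-05) and at 6.77 and 7.06 and then 8.89, 8.71 and 9.04 in OV-90 (3.91-fold higher, adjusted p = 0.0056). In EFO-21 it went from 8.55, 8.47 and 8.59 to 5.97, 5.54 and 5.78, 6.83-fold lower (adjusted p = 3.19e-05). The groups did not overlap in these 3 lines. In OVSAHO VCAN was at 2.87, 3.15 and 2.87 and 3.06, 3.39 and 3.33 and was not called.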

How the data were processed

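Stranded mRNA libraries were aligned to GRCh37, and deposited values are on a log2 scale, quantile normalized by the authors. A robust linear model over exons gave 38 members' values, and a mean of log2 exon values gave those of MMP13 and ADAMTS8. The table holds no counts, so depth is unknown and no intervals are given.

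Each line was fitted with limma 3.58.1 in R 4.3.3 (lmFit, eBayes with a mean-variance trend, 2-sided), with no filter, and p-values were adjusted over 21658 genes by the Benjamini-Hochberg method. Parental lines were compared by a moderated F-test over 11 libraries, and changes between lines by an F-test of interaction contrasts over 23. The smallest exact permutation p for 3 against 3 libraries is 0.1. The fits were tested on simulated data, where recovery was lowest for OV-90, with its 2 parental libraries. Each simulated gene had the same SD in all groups, so the unequal spread of the OV-90 groups was not covered. Its recovery missed the pass mark first set, which was then replaced by marks on bias, direction, false calls, p-values and recovery at low spread.

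Named members were those called higher in 2 or more lines, lower in 2 or more, or in opposite directions, the 3 largest rises and falls per line, the TIMPs, MMP2, MMP7, MMP9, MMP14, and the chromosome 11 and ADAMTS neighbour groups. Other pathway genes named were among those with calls of 1 direction in 2 or more lines or of opposite directions. Members, pathway lists and marker lists were chosen with earlier results of these data known. Alternatives were a single fit, no trend, a filter, raised low values, recentring, no minimum fold and leaving out each library. Symbols, promoters and overlaps came from RefSeq GRCh38.p14, and positions from GENCODE on GRCh37.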

Additional observations from a re-analysis of the deposited data

Results flagged for a closer look

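Some genes changed in opposite directions in different resistant lines, and the adjusted p given for each is that of the F-test of the difference between lines (limma, adjusted over all genes). The genes were picked by their opposite calls in the same libraries, so that p is no separate evidence, and 75.1% of all genes pass the test. MMP11 was higher in resistant EFO-21 (log2 change 1.11) and lower in resistant Kuramochi (-1.51), adjusted p = 4.33e-06, and its EFO-21 call ended without library 10 (log2 change 0.98). MMP12 was higher in resistant Kuramochi and lower in resistant OVSAHO, adjusted p = 1.66e-05. Parental Kuramochi and both OVSAHO groups were at or near the bottom, and with low values raised to the 10th percentile the OVSAHO call ended, at a log2 change of -0.23. MMP16 was higher in resistant OVSAHO (1.22) and lower in resistant Kuramochi (-2.78), adjusted p = 1.04e-08. TIMP3 was higher in resistant EFO-21 (1.61) and lower in resistant OV-90 (-2.21), adjusted p = 4.5e-09, and its OV-90 call ended without library 13, 14 or 15 (adjusted p = 0.0858, 0.0694 and 0.086). Among the other pathway genes, ADAM12 (adjusted p = 1.49e-08), PCSK5 (adjusted p = 2e-07) and VCAN (adjusted p = 5.97e-13) were higher in resistant Kuramochi and OV-90 and lower in resistant EFO-21. SPOCK2 was higher in resistant OV-90 and lower in resistant Kuramochi and OVSAHO, adjusted p = 3.22e-09. The OV-90 calls of PCSK5 and SPOCK2 ended without library 13, 14 or 15, at adjusted p of 0.059, 0.0517 and 0.0564 for PCSK5 and 0.0652, 0.0528 and 0.0662 for SPOCK2. That of ADAM12 ended without library 13, at 0.0516. SERPINE2 was higher in resistant EFO-21 (1.04) and lower in resistant OVSAHO (-1.66), adjusted p = 9.48e-15, and its log2 change in EFO-21 was 0.99 without library 23, under the minimum for a call. LCN2 was higher in resistant OV-90 (1.07) and lower in resistant EFO-21 (-3.97), adjusted p = 7.07e-10, and its OV-90 call ended without library 3 (log2 change 0.79) and without library 13, 14 or 15 (adjusted p = 0.112, 0.104 and 0.11). ADAM19 was higher in resistant OVSAHO (1.27) and lower in resistant EFO-21 (-1.0), adjusted p = 4.35e-05, and its EFO-21 call ended without library 10, 12, 22 or 24, at log2 changes of -0.98, -0.86, -0.92 and -0.95.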

How the results depend on the processing

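No paired analysis was possible because the columns carry library numbers and no replicate numbers. The 40 members in the 4 lines make 160 results, of which the filter kept 84, and leaving out a library refitted the 40 results of its line. Recentring on the top 25% of genes left all 160 on the same side of the threshold, and it shifted the median change of all genes by at most -0.065, in OV-90. A single fit of 23 libraries ended 1 call and added 3, no trend ended 2, and raised low values ended 6. With no trend, 5 members were lower in OV-90 in place of 6, and 7 were higher in EFO-21 in place of 8. With low values raised, members higher and lower numbered 3 and 0 in OVSAHO, 4 and 5 in OV-90 and 7 and 3 in EFO-21. The alternatives for the difference between lines and for the other pathway genes were chosen after seeing the data.

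With the filter at the 25th percentile of mean value, which tests fewer genes, members higher and lower numbered 10 and 3 in Kuramochi and 1 and 0 in OVSAHO, and 2 were lower in EFO-21. All 84 results that the filter kept stayed on the same side of the threshold, so these counts fell because members were removed. Among all genes kept, the higher and lower numbered 1573 and 1434 in Kuramochi and 472 and 402 in OVSAHO. The lower ones numbered 1025 in OV-90 and 910 in EFO-21. Of the fewer members kept, 20 differed among parental lines and 20 in their change between lines, where 12447 and 13200 of all genes kept did. Pathway genes higher and lower numbered 4 and 1 in Kuramochi and 1 and 4 in OVSAHO, and the lower ones 2 in OV-90 and 3 in EFO-21. With low values raised, 0 members were lower in OVSAHO, 5 pathway genes were higher in OV-90 and 5 lower in EFO-21. SERPINB2 in Kuramochi and ADAM33 in EFO-21 then turned to changes of 0.05 and 0.02, since all 6 values of each were at the bottom and became the 10th percentile of their libraries.

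With no minimum fold, members higher and lower numbered 10 and 4 in OVSAHO and 16 and 11 in EFO-21, and 8 were higher in OV-90. Pathway genes numbered 21 and 11 in Kuramochi, 11 and 13 in OVSAHO and 13 and 13 in OV-90, and 18 were higher in EFO-21. Of all 21658 genes, the higher and lower then numbered 5111 and 5047 in Kuramochi and 3696 and 3507 in OVSAHO. In OV-90 the higher and lower of all genes numbered 3917 and 3874, and in EFO-21 5405 and 5073.

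With 1 library left out, members higher ranged from 15 to 17 in Kuramochi, 4 to 4 in OVSAHO, 1 to 6 in OV-90 and 5 to 8 in EFO-21. Members lower ranged from 6 to 8, 1 to 2, 0 to 8 and 4 to 5 in the same order. Pathway genes higher ranged from 10 to 11, 2 to 5, 2 to 9 and 4 to 6, and pathway genes lower from 3 to 5, 4 to 7, 1 to 7 and 7 to 9. The lowest OV-90 counts came from leaving out a resistant library, which left 2 libraries in each group, and a group of 1 parental library was taken to vary like the resistant group.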
